A study of Mus musculus with 6 samples.

Results

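The Wnt receptor genes described here are 7 Frizzled receptors (Fzd1, Fzd2, Fzd4, Fzd5, Fzd6, Fzd7 and Fzd9), the co-receptors Lrp5 and Lrp6, and the R-spondin receptor Lgr4, chosen by their gene names in a table of RPKM values (reads scaled to transcript length and library depth). They are 10 of the 40769 gene identifiers in that table, and all 10 passed the filter on low values (2 or more of the 6 libraries at an RPKM of 0.5 or above). Polyadenylated RNA had been sequenced from jejunal (small intestinal) enteroids of C57BL/6 mice, which are epithelial cultures in Matrigel, here in serum-free ENR medium (EGF, Noggin and R-spondin). The study asked how over-expression of PLAGL2, a transcription factor with zinc fingers that belongs to the PLAG family, changes gene expression in them.

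Each line carried a piggyBac transposon for constitutive expression. PLAGL2 clone 3 was labelled as high for PLAGL2, PLAGL2 clone 1 as low, and a line with GFP in place of PLAGL2 was the control. Every line gave 1 library at passage 7 and 1 at passage 5, so that there were 4 PLAGL2 and 2 GFP libraries. All passage 5 libraries were labelled replicate A and all passage 7 libraries replicate B. Passage therefore cannot be told apart from any other difference between the A and B libraries. The promoter that drives the transgene is not given in the sources used here, and both libraries of a line came from the same transfected line. A p-value for a single clone against GFP therefore rests on the spread between passages within lines, and not between independent transfections. A p-value for both clones against GFP treats the 4 PLAGL2 libraries as independent, though each clone gave a pair of them. It also leaves passage out, and GFP is a single line.

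Wnt ligands bind the extracellular cysteine-rich domain of a Frizzled protein, a receptor that crosses the membrane several times, and bring it together with Lrp5 or Lrp6, whose phosphorylated tail holds Axin at the membrane and so spares beta-catenin from degradation. R-spondins bind Lgr4, Lgr5 or Lgr6 and draw off the ubiquitin ligases Rnf43 and Znrf3, which otherwise remove Frizzled and Lrp6 from the surface. In the intestinal crypt this pathway maintains stem cells, and Fzd5 is also needed there for Paneth cell maturation, while Fzd7 is known as a Wnt receptor of Lgr5-expressing stem cells.

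RefSeq promoter sequence (GRCm38.p6, the 250 bases before the RefSeq start of the gene, 5′ to 3′ on the gene's strand) was available for 6 of the 10 receptors. The 3 shown are those that hold a match and that the values below turn on: Fzd4 and Fzd5 lay apart in the PLAGL2 and GFP libraries, and Fzd7 rose between passages. Fzd2, which also lay apart, had no window, and neither had Lrp5, which also rose. Capitals mark matches, on either strand, to the PLAG core motif (GGGGC or GAGGC, then 6 to 8 bases of any kind, then GGG) in Fzd4 and Fzd5, and to the TCF core motif (CTTTG followed by AA, AT, TA or TT) in Fzd7.
Fzd4 (chr7:89404116-89404365, plus strand): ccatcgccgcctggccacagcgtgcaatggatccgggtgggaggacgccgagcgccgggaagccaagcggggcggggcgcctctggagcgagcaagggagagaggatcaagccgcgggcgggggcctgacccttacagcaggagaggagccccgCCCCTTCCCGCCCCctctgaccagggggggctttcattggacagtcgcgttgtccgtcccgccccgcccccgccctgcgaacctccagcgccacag
Fzd5 (chr1:64737751-64738000, minus strand): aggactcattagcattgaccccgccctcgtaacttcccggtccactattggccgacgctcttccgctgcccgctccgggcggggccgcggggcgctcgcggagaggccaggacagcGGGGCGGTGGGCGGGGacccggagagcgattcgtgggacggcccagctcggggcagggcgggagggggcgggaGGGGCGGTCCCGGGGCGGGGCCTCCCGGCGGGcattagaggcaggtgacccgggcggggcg
Fzd7 (chr1:59481897-59482146, plus strand): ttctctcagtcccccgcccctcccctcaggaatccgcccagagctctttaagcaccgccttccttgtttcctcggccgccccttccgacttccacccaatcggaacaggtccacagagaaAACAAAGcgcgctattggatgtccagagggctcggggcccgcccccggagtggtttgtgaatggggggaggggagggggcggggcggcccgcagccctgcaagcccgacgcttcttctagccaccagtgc

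The Fzd4 window held 1 PLAG core match, 96 to 83 bases before the start, and the Fzd5 window held 4. Of these, the match 53 to 38 bases before the start overlaps those at 61 to 47 and at 45 to 30, which do not overlap each other. The Fzd7 window held 1 TCF core match, 130 to 124 bases before the start. These distances are from the RefSeq start, which differs from the GENCODE M21 gene coordinates given below. The Fzd7 window ends at 59482146, and the gene coordinates begin at 59482424. The Fzd4 window ends at 89404365, and the gene coordinates begin at 89404355. Of all 27025 RefSeq promoter windows of this length, 19.6% held a PLAG core match and 14.9% a TCF core match. Among the 7446 windows with a GC content of at least 60%, as in Fzd4 (72.8%), Fzd5 (76.4%) and Fzd7 (65.2%), these shares were 45.5% and 4.82%. The windows of Fzd1, Fzd9 and Lgr4 held neither motif. These matches are letters in a window, not measured binding.

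Values of Plagl2 followed the labels, though they do not tell transcript of the transgene from that of the endogenous gene. Plagl2 had an RPKM of 37.2 at passage 7 and 37.2 at passage 5 in clone 3, of 26.5 and 30.9 in clone 1, against 23.1 and 22.8 in GFP, and every PLAGL2 library lay above both GFP libraries. Its adjusted p was 0.0793 for clone 3 against GFP and 0.995 for clone 1 against GFP (limma-trend with Benjamini-Hochberg adjustment over 16314 genes, threshold 0.05). Library depth, recovered from the steps of the RPKM values, was 13779306 to 17319950 reads. The 4 epithelial markers Epcam, Vil1, Cdx2 and Krt20 summed to an RPKM of 862 to 928, a sum whose members moved apart between passages: Vil1 and Krt20 fell at passage 7 (log2 differences -0.39 and -0.79, adjusted p = 0.0356 and 0.011), while the other 2 were higher there in every line and not called. Endothelial Cdh5 and Kdr were listed at 0 in all 6 libraries, and the list of 3 endothelial markers, which also holds Pecam1, summed to 0.12 to 0.256. The 6 mesenchymal markers summed to 6.54 to 11.6 and 3 immune markers to 2.69 to 5.97.

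The 10 receptors covered a wide span of transcript levels, with Fzd5 the most abundant Frizzled in every library. The mean RPKM over the 6 libraries was 68.5 ± 9.26 for Fzd5, 48.0 ± 3.52 for Lgr4, 29.8 ± 1.34 for Lrp6, 21.5 ± 2.14 for Lrp5 and 17.3 ± 2.18 for Fzd7 (SD, n = 6 each). The other Frizzled genes averaged 6.30 ± 1.5 for Fzd2, 3.76 ± 0.625 for Fzd6, 3.28 ± 0.832 for Fzd4, 1.90 ± 0.322 for Fzd9 and 1.10 ± 0.497 for Fzd1 (SD, n = 6 each). Neighbours in this order overlapped in their ranges over the libraries for Lrp5 and Fzd7, Fzd2 and Fzd6, Fzd6 and Fzd4, and Fzd9 and Fzd1. The other neighbours did not overlap. Low levels rest on few reads: Fzd1 had 45 to 128 reads in a library and Fzd9 58 to 86, which gives exact 95% Poisson intervals with a half-width of up to 30.4% and 26.7% of the value, against at most 2.58% for Fzd5 with 5814 to 9408 reads. These intervals cover counting error only.

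**Figure D1:**
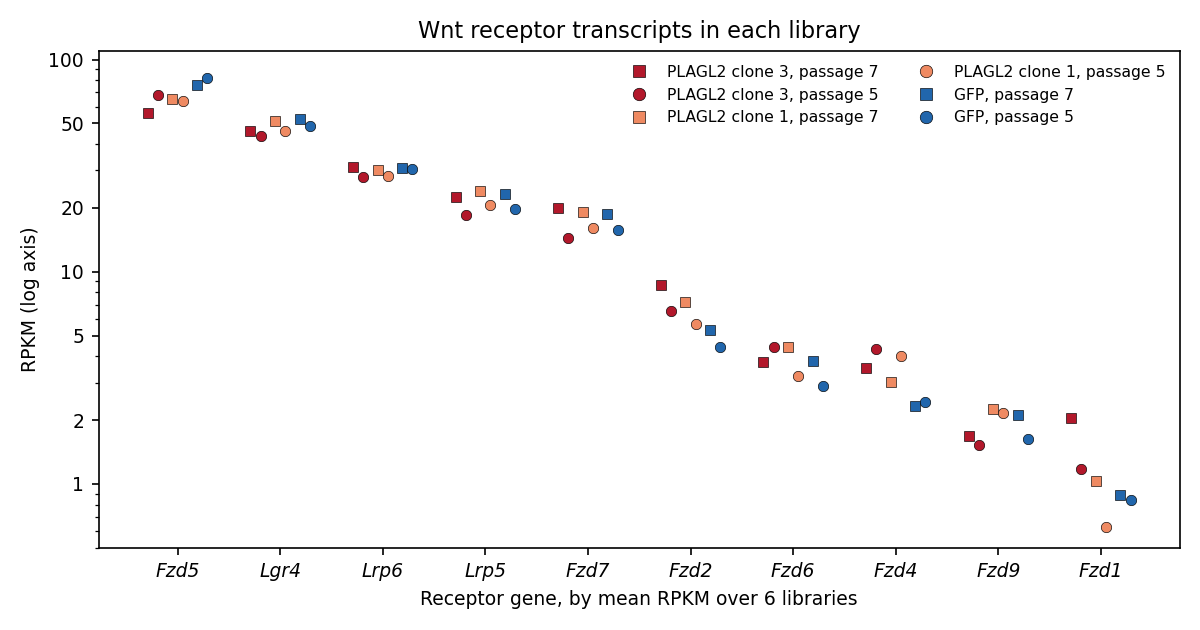
RPKM (log axis) of the 10 receptor genes in each library, ordered by their mean over 6 libraries; symbols show clone 3, clone 1 and GFP at passages 7 and 5. Fzd5 lies between 55.8 and 81.9 and Fzd1 between 0.624 and 2.04.

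With PLAGL2, Fzd4 and Fzd2 were higher and Fzd5 lower in all 4 libraries than in either GFP library, but none of these differences passed the test over all genes. Of the 10 receptors 0 were called higher and 0 lower with both clones set against GFP, where the share called among all 16314 genes was 0% higher and 0.00613% lower. Unadjusted p was under 0.05 for Fzd4 and Fzd2, which were higher, and for Fzd5, which was lower, where the shares of all genes were 3.63% and 2.32%. By the simpler count of groups that do not overlap, the same 2 of 10 were higher and 1 of 10 lower, against 7.96% and 6.6% of all genes. The median log2 difference was 0.01 over the 10 receptors and 0.01 over all genes tested. In RNA from whole cultures, fewer cells of a type and less RNA per cell cannot be told apart.

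Fzd5 (ENSMUSG00000045005, mm10 chromosome 1, 64730558 to 64737751, minus strand), a receptor for canonical Wnt signals in the crypt, had an RPKM of 55.8 at passage 7 and 68.1 at passage 5 in clone 3, of 65.3 and 63.8 in clone 1, against 75.8 and 81.9 in GFP. The highest PLAGL2 library, clone 3 at passage 5, lay below the lower GFP library. The means were 63.2 ± 5.30 with PLAGL2 (SD, n = 4) and 78.9 ± 4.34 in GFP (SD, n = 2), a difference of -0.32 on the log2(RPKM + 0.5) scale that is used for all tests here (SE 0.09, adjusted p = 0.661). Reads were 5814 and 7853 in clone 3, 6964 and 7645 in clone 1, and 7223 and 9408 in GFP. In the GENCODE M21 annotation 16.6% of the 50-base stretches of the Fzd5 transcript also lie in Gm38058, an antisense gene, and for Fzd6 the share in antisense Gm26704 was 2.41%. Whether the counting used strand is not given in the sources used here. Between 2 of the 10 receptors the longest identical stretch was 47 bases, in Fzd1 with Fzd2 and with Fzd7.

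Fzd4 (ENSMUSG00000049791, chromosome 7, 89404355 to 89413134, plus strand), which besides Wnts binds the unrelated ligand Norrin, had an RPKM of 3.53 at passage 7 and 4.35 at passage 5 in clone 3, of 3.01 and 4.03 in clone 1, against 2.32 and 2.43 in GFP. All 4 PLAGL2 libraries were above both GFP libraries, and within each clone the passage 5 library was the higher. Fzd4 averaged 3.73 ± 0.587 with PLAGL2 (SD, n = 4) and 2.38 ± 0.0787 in GFP (SD, n = 2), a log2 difference of 0.54 (SE 0.16, adjusted p = 0.644). It rested on 171 to 267 reads in the PLAGL2 libraries and 118 and 149 in GFP.

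Fzd2 (ENSMUSG00000050288, chromosome 11, 102604396 to 102608058, plus strand), a single-exon gene for a receptor known from both canonical and Wnt5a signalling, had an RPKM of 8.65 at passage 7 and 6.55 at passage 5 in clone 3, of 7.16 and 5.69 in clone 1, against 5.29 and 4.44 in GFP. At each passage the order was clone 3, then clone 1, then GFP, and the PLAGL2 and GFP values did not overlap. The means were 7.02 ± 1.25 with PLAGL2 (SD, n = 4) and 4.86 ± 0.602 in GFP (SD, n = 2), a log2 difference of 0.48 (SE 0.17, adjusted p = 0.753).

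Fzd7 (ENSMUSG00000041075, chromosome 1, 59482424 to 59486955, plus strand), the Frizzled known from Lgr5-expressing cells, had an RPKM of 19.9 at passage 7 and 14.4 at passage 5 in clone 3, of 19.0 and 16.0 in clone 1, against 18.7 and 15.7 in GFP. The values followed the passage and overlapped between lines. The log2 difference between PLAGL2 and GFP was 0.01 (SE 0.15, 95% interval -0.35 to 0.36, adjusted p = 1.00).

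The remaining Frizzled receptors overlapped between PLAGL2 and GFP. Fzd6 (ENSMUSG00000022297, chromosome 15, 39006034 to 39038188, plus strand), a receptor of planar cell polarity, had an RPKM of 3.75 at passage 7 and 4.44 at passage 5 in clone 3, of 4.42 and 3.23 in clone 1, against 3.81 and 2.88 in GFP. Fzd9 (ENSMUSG00000049551, chromosome 5, 135248938 to 135251230, minus strand), known from bone formation, was at 1.68 and 1.52 in clone 3 and 2.26 and 2.17 in clone 1, against 2.12 and 1.63 in GFP at the same passages. Fzd1 (ENSMUSG00000044674, chromosome 5, 4753839 to 4758035, minus strand), a receptor for canonical Wnt ligands, was at 2.04 and 1.18 in clone 3 and 1.03 and 0.624 in clone 1, against 0.889 and 0.839 in GFP. For Fzd1 the 2 clone 3 libraries stood above all others, and clone 1 lay on both sides of GFP. The log2 differences between PLAGL2 and GFP were 0.21 for Fzd6 (95% interval -0.20 to 0.63), 0.01 for Fzd9 (-0.45 to 0.48) and 0.27 for Fzd1 (-0.50 to 1.04), with adjusted p of 0.980, 1.00 and 1.00.

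Lrp6, Lgr4 and Lrp5 had the narrowest ranges over the libraries of the 10 genes, 0.15, 0.28 and 0.36 on the log2 scale. The co-receptor Lrp6 (ENSMUSG00000030201, chromosome 6, 134446476 to 134566965, minus strand) had an RPKM of 31.1 at passage 7 and 27.9 at passage 5 in clone 3, of 30.1 and 28.4 in clone 1, against 30.7 and 30.5 in GFP. Its paralog Lrp5 (ENSMUSG00000024913, chromosome 19, 3584828 to 3686564, minus strand) was at 22.5 and 18.5 in clone 3 and 23.95 and 20.7 in clone 1, against 23.4 and 19.8 in GFP. Both genes overlapped between PLAGL2 and GFP. The log2 difference between PLAGL2 and GFP was -0.06 for Lrp6 (95% interval -0.23 to 0.10) and -0.01 for Lrp5 (-0.30 to 0.28), each with an adjusted p of 1.00. In the ratio of RPKM, Lrp6 exceeded Lrp5 by 1.38 and 1.5 times in clone 3 at passages 7 and 5 and by 1.26 and 1.37 times in clone 1, against 1.32 and 1.54 times in GFP.

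Lgr4 (ENSMUSG00000050199, chromosome 2, 109917647 to 110014257, plus strand), the R-spondin receptor of crypt cells in general, had an RPKM of 45.9 at passage 7 and 43.4 at passage 5 in clone 3, of 51.1 and 45.9 in clone 1, against 52.7 and 48.9 in GFP. Clone 3 lay below both GFP libraries, while clone 1 overlapped with GFP. Over both clones the log2 difference was -0.13 (SE 0.08, 95% interval -0.32 to 0.07, adjusted p = 0.963). Its relative Lgr5, the stem cell marker, was at 75.6 and 39.2 in clone 3 and 55.0 and 38.8 in clone 1, against 41.2 and 25.7 in GFP. The ratio of Lgr4 to Lgr5 RPKM was thus 0.607 at passage 7 and 1.11 at passage 5 in clone 3, and 0.929 and 1.18 in clone 1, against 1.28 and 1.90 in GFP. Lgr5 itself was not called (log2 difference 0.62, SE 0.31, adjusted p = 0.890), and the ratio was not tested.

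**Figure D2:**
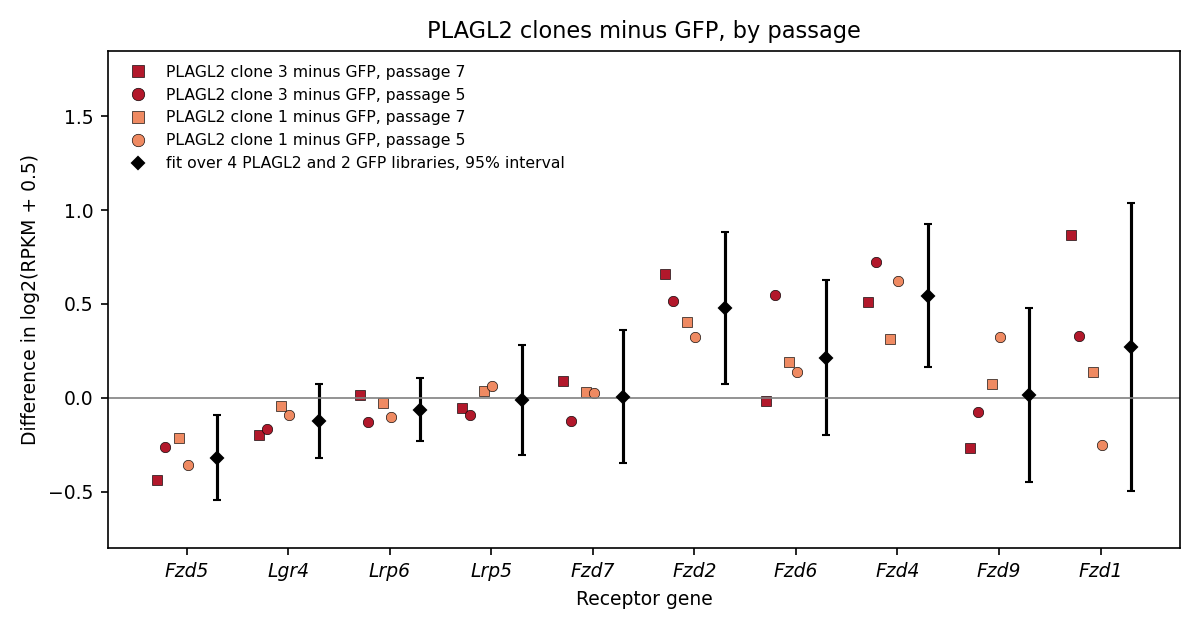
Difference in log2(RPKM + 0.5) of each clone from GFP at the same passage (coloured symbols) and the fitted difference over 4 PLAGL2 and 2 GFP libraries with its 95% interval (black). Fzd4 and Fzd2 lie above 0 and Fzd5 below 0 for both clones at both passages.

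Marker sums of goblet cells, and in clone 3 of Paneth cells, differed from GFP as well. The 4 goblet cell markers Muc2, Clca1, Fcgbp and Agr2 summed to an RPKM of 145 at passage 7 and 144 at passage 5 in clone 3 and to 277 and 283 in clone 1, against 418 and 523 in GFP. All 4 were below both GFP values in every PLAGL2 library, as were 6.6% of all genes. For clone 3 against GFP, Muc2, Fcgbp and Agr2 were called lower (limma-trend adjusted p = 0.0251, 0.0144 and 0.0172), where 0.153% of all genes were, and Clca1 was not. The 4 Paneth cell markers summed to 1231 and 929 in clone 3 and to 2068 and 1871 in clone 1, against 2159 and 2057 in GFP. Clone 1 overlapped with GFP in this sum. In every PLAGL2 library 1 of the 4 was below both GFP values, and 0 were called between lines. Fitted differences from GFP were above 0 for 0 of 4 in clone 3 and 2 of 4 in clone 1. Of the stem, enterocyte, enteroendocrine and tuft markers 0 lay apart from GFP in every PLAGL2 library, and 0 were called between lines. The part of these cell types in the receptor values was not tested.

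Taken by clone, Fzd2, Fzd4 and Fzd5 kept the same sides of GFP in each. Clone 3 had 0 of 10 receptors called, where 0.196% of all genes were called higher and 0.153% lower, and unadjusted p was under 0.05 for 2 that were higher and 1 that was lower (5.36% and 3.68% of all genes). The log2 difference between clone 3 and GFP was 0.62 for Fzd4 (SE 0.19, adjusted p = 0.384), 0.59 for Fzd2 (SE 0.19, adjusted p = 0.420), 0.60 for Fzd1 (SE 0.29, adjusted p = 0.667), -0.35 for Fzd5 (SE 0.12, adjusted p = 0.437) and -0.18 for Lgr4 (SE 0.09, adjusted p = 0.699). Libraries of clone 3 and GFP did not overlap for these 5 genes, that is 3 higher and 2 lower, against 18.5% and 16.1% of all genes. With the replicate block, which pairs libraries by passage, unadjusted p was under 0.05 for 5 receptors in place of 3, where 19.5% of all genes were, and still 0 were called. The adjusted p of Fzd2 was then 0.0517, the lowest of its alternatives, which ranged up to 0.92.

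Clone 1 also had 0 of 10 receptors called, where 0.0184% of all genes were called higher and 0.0123% lower, and 0 at an unadjusted p under 0.05 (2.18% and 1.77% of all genes). The count was 3 with the replicate block, where 9.57% of all genes reached that level, and 2 with voom on recovered reads, where 3.63% did. Its log2 difference from GFP was 0.47 for Fzd4 (SE 0.19), 0.37 for Fzd2 (SE 0.19) and -0.29 for Fzd5 (SE 0.12), each with an adjusted p of 1.00. Fzd2, Fzd4 and Fzd9 lay above both GFP libraries and Fzd5 and Lrp6 below them, that is 3 higher and 2 lower of 10, where 13.6% and 12.5% of all genes did so. Both clone comparisons used the same GFP libraries.

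Between the clones, Fzd1 was higher and Fzd9 lower in both clone 3 libraries than in either clone 1 library. For Fzd1 the log2 difference between clone 3 and clone 1 was 0.66 (SE 0.29, unadjusted p = 0.0653, adjusted p = 1.00 by limma-trend), and for Fzd9 it was -0.37 (SE 0.18, unadjusted p = 0.0935, adjusted p = 1.00). These were 1 higher and 1 lower of 10 receptors, where 14.5% and 11.5% of all genes did not overlap. Called receptors were 0 of 10, where 0.00613% of all genes were called higher and 0.0184% lower. Those with an unadjusted p under 0.05 were also 0, where 2.78% and 2.35% of all genes had one. With the replicate block there were 4 such receptors, where 11.8% of all genes were, and with voom 1, where 4.88% were. For Fzd2, Fzd4 and Fzd5 the 95% intervals of the difference between the clones were -0.26 to 0.70, -0.33 to 0.62 and -0.36 to 0.23.

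Summed over the family, Fzd5 made up a smaller share of Frizzled transcript in both clones than in GFP. The 10 Frizzled genes, with Fzd3, Fzd8 and Fzd10 added, summed to an RPKM of 98.0 at passage 7 and 103 at passage 5 in clone 3 and to 105 and 98.1 in clone 1, against 111 and 111 in GFP. Fzd5 held 56.9% and 65.9% of this sum in clone 3 and 62.1% and 65.1% in clone 1, against 68.4% and 73.8% in GFP. Fzd2 held 8.83% and 6.34% in clone 3 and 6.82% and 5.80% in clone 1, against 4.77% and 4.0% in GFP. The lines did not overlap with GFP in either share. Fzd7 ranged from 14.0% to 20.3% and overlapped. Without Fzd5 the sum was 42.2 and 35.2 in clone 3 and 39.8 and 34.3 in clone 1, against 35.0 and 29.1 in GFP, so that it was higher in both clones at each passage but overlapped between passages. These shares were not tested.

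**Figure D3:**
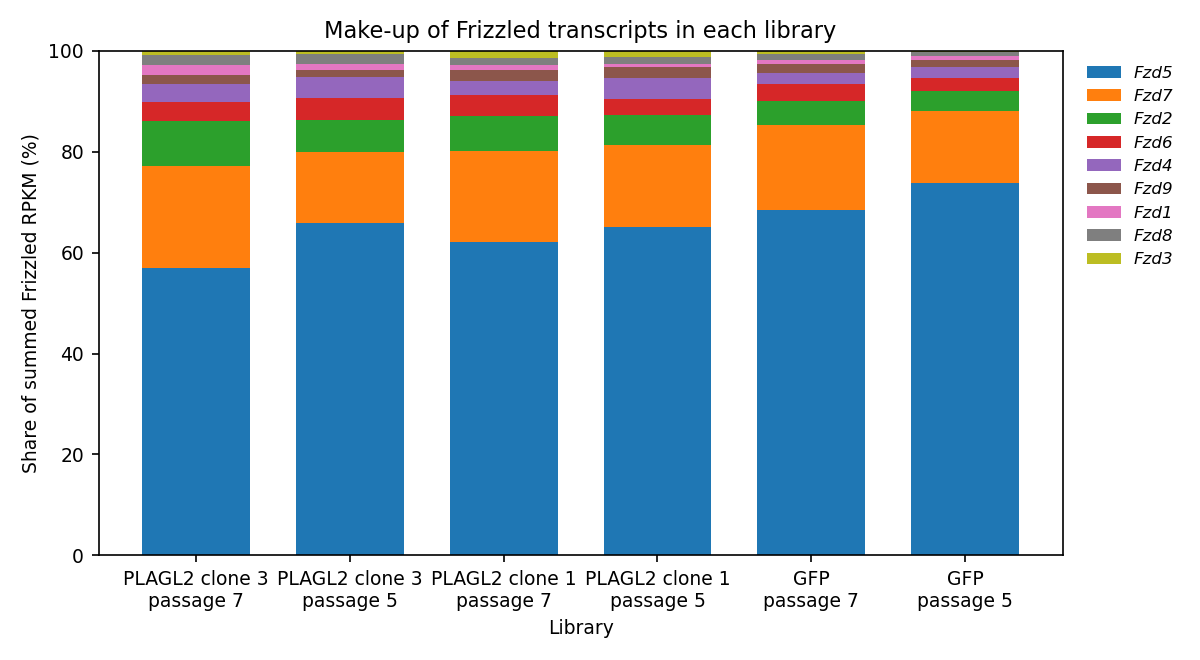
Share of the summed RPKM of the Frizzled genes held by each gene (stacked bars, %), in each library; Fzd10 was listed at 0. The Fzd5 share was 56.9% to 65.9% in the 4 PLAGL2 libraries and 68.4% and 73.8% in GFP.

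The other Frizzled genes were low. Fzd8 was at 1.80 at passage 7 and 2.08 at passage 5 in clone 3 and 1.39 and 1.33 in clone 1, against 1.19 and 0.810 in GFP (log2 difference 0.52, SE 0.21, adjusted p = 0.834). Fzd3, a receptor of axon guidance and planar polarity, was at 0.910 and 0.696 in clone 3 and 1.502 and 1.20 in clone 1, against 0.755 and 0.356 in GFP (log2 difference 0.58, SE 0.28, adjusted p = 0.883). Fzd8 did not overlap between PLAGL2 and GFP, Fzd3 did, and Fzd10 was listed at 0 in every library.

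Between passages, which coincide with replicates A and B, Fzd7 and Lrp5 rose. They were 2 of 10 receptors called higher at passage 7 than at passage 5 and 0 called lower, where 6.81% of all genes were called higher and 5.3% lower. Fzd7 averaged 19.2 ± 0.622 at passage 7 and 15.4 ± 0.851 at passage 5 (SD, n = 3 each), a log2 difference of 0.31 (SE 0.06, adjusted p = 0.0459 by limma-trend). Lrp5 averaged 23.3 ± 0.737 and 19.7 ± 1.09 (SD, n = 3 each), a log2 difference of 0.24 (SE 0.04, adjusted p = 0.0337). For both genes the 3 passage 7 libraries were above all 3 passage 5 libraries, as for 24.5% of all genes, and 0 receptors were separated the other way (10.7%). At an unadjusted p under 0.05, Fzd2, Fzd7, Lrp5 and Lgr4 were higher and 0 lower, where 22.3% and 11% of all genes were. The rise of Fzd7 was 0.45 in clone 3, 0.24 in clone 1 and 0.24 in GFP on the log2 scale, and that of Lrp5 was 0.27, 0.21 and 0.23.

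Neither call was firm. Without any 1 of the 6 libraries both missed the threshold, at log2 differences of 0.24 to 0.345 for Fzd7 and 0.22 to 0.254 for Lrp5. Such a fit keeps only 2 lines with both passages, the same pairs whichever library of a line is left out. Without a GFP or a clone 1 library it called 0 genes in all, so a miss there could not tell these genes from any other. With each library shifted to the same median Fzd7 and Lrp5 missed the threshold too, at log2 differences of 0.24 (adjusted p = 0.0849) and 0.17 (adjusted p = 0.0698). The split over all genes was then 473 higher and 1127 lower in place of 1111 and 864. With no filter on low values the adjusted p was 0.0845 for Fzd7 and 0.0562 for Lrp5, and with quantile normalization it was 0.0669 for Fzd7, within ranges over all alternatives of 0.0067 to 0.174 and 0.0038 to 0.182.

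The other receptors did not pass between passages. Fzd2 was at 7.04 ± 1.69 at passage 7 and 5.56 ± 1.06 at passage 5 (SD, n = 3 each), with a log2 difference of 0.30 (SE 0.06, adjusted p = 0.0535), and was higher at passage 7 in each line. Lgr4 was at 49.9 ± 3.56 and 46.1 ± 2.72 (SD, n = 3 each), with a log2 difference of 0.11 (SE 0.03, adjusted p = 0.104). Fzd4 was the 1 receptor lower at passage 7 in every line (log2 difference -0.23, SE 0.10, adjusted p = 0.191). Directions were shared by all 3 lines for 7 receptors that were higher (Fzd1, Fzd2, Fzd7, Fzd9, Lrp5, Lrp6 and Lgr4), where 39% of all genes were higher in all lines and 17.9% lower. The median log2 difference was 0.17 over the 10 receptors and 0.09 over all genes tested.

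**Figure D4:**
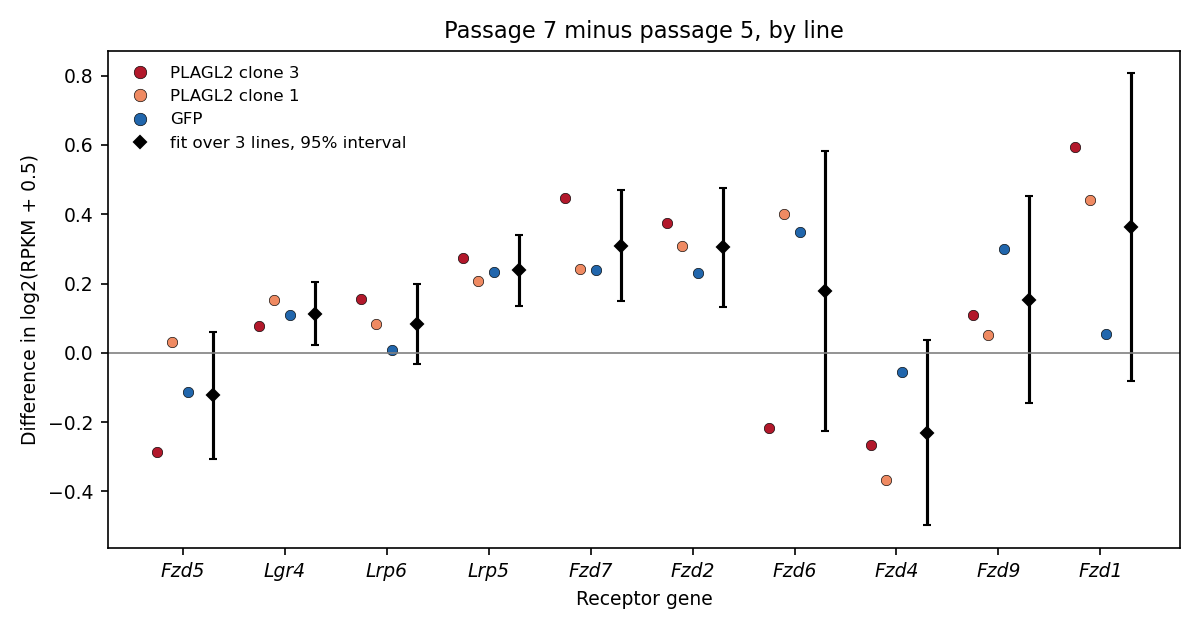
Difference in log2(RPKM + 0.5) between passage 7 and passage 5 in each line (coloured points) and the fitted difference over 3 lines with its 95% interval (black). Fzd7 and Lrp5 lie above 0 in all 3 lines, and Fzd4 lies below 0 in all 3.

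Markers of several cell types also differed between passages. The stem cell markers Lgr5, Olfm4, Ascl2 and Smoc2 summed to an RPKM of 1732 at passage 7 and 1053 at passage 5 in clone 3, to 1766 and 1100 in clone 1, and to 1307 and 996 in GFP, and all 4 were higher at passage 7 in every line. The enterocyte markers Alpi, Fabp1, Apoa1 and Sis summed to 2005 and 3966 in clone 3, to 2399 and 5286 in clone 1, and to 2311 and 4879 in GFP, and all 4 were lower at passage 7 in every line. All 3 enteroendocrine markers and all 3 tuft cell markers were higher at passage 7 in every line, with Chga, Chgb, Trpm5 and Pou2f3 called (adjusted p of 0.0309, 0.0376, 0.0226 and 0.0469). The Paneth marker Mmp7 and the mesenchymal marker Vim were called higher (0.0387 and 0.033), and the goblet marker Clca1 was called lower (log2 difference -1.07, adjusted p = 0.011). These were single calls within their lists. Fitted differences were above 0 for 4 of 4 Paneth markers, 2 of 3 tested mesenchymal markers and 1 of 4 goblet markers. Of the 4 goblet markers 2 were lower at passage 7 in every line. The part of these cell types in the receptor values was not tested.

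Among 94 other genes of the Wnt pathway, of which 50 passed the filter on low values, 0 were called between lines. Between passages 9 of the 50 were called higher, where 6.81% of all genes tested were. With both clones against GFP 39 of the 50 were above 0 and the median log2 difference was 0.12, against 0.01 over all genes. Between passages 43 of the 50 were above 0 and the median was 0.21, against 0.09 over all genes. Of the 50, 0 were called lower, where 5.3% of all genes were. The share of all genes above 0 was not counted. Of 5 tested receptors outside the Frizzled family, 4 rose: Lgr5, the pseudokinase Ryk, the planar polarity receptor Ptk7 and the Fzd4 partner Tspan12, with log2 differences of 0.70, 0.22, 0.79 and 0.33. Of 7 tested genes for receptor turnover and inhibition 1 rose, the ubiquitin ligase Rnf43 (0.40). Its paralog Znrf3 was at 8.78 ± 0.414 at passage 7 and 7.27 ± 0.392 at passage 5 (SD, n = 3 each, adjusted p = 0.0651).

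Of 4 tested genes for the maturation of ligands and receptors, 2 rose between passages: Wls, which carries Wnts to the surface (log2 difference 0.46), and Mesdc2, a chaperone of Lrp5 and Lrp6 (0.35). Among 16 transducers and parts of the destruction complex 1 rose, Axin2, itself a target of the pathway (0.52), and among 6 planar polarity genes 1 did, Vangl1 (0.57). Of the tested ligands and R-spondins 0 of 5 were called, and of the nuclear effectors 0 of 5. The adjusted p of the 9 genes lay between 0.0193 and 0.0451. Ptk7 also stood apart by line, at 0.935 at passage 7 and 0.310 at passage 5 in clone 3 and 7.96 and 4.61 in clone 1, against 6.00 and 3.20 in GFP, a log2 difference of -2.61 between clone 3 and clone 1 that was not called (adjusted p = 0.232). Without a GFP library or a clone 1 library 0 genes in all were called between passages, so these 9 calls were lost with the receptors'.

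**Figure D5:**
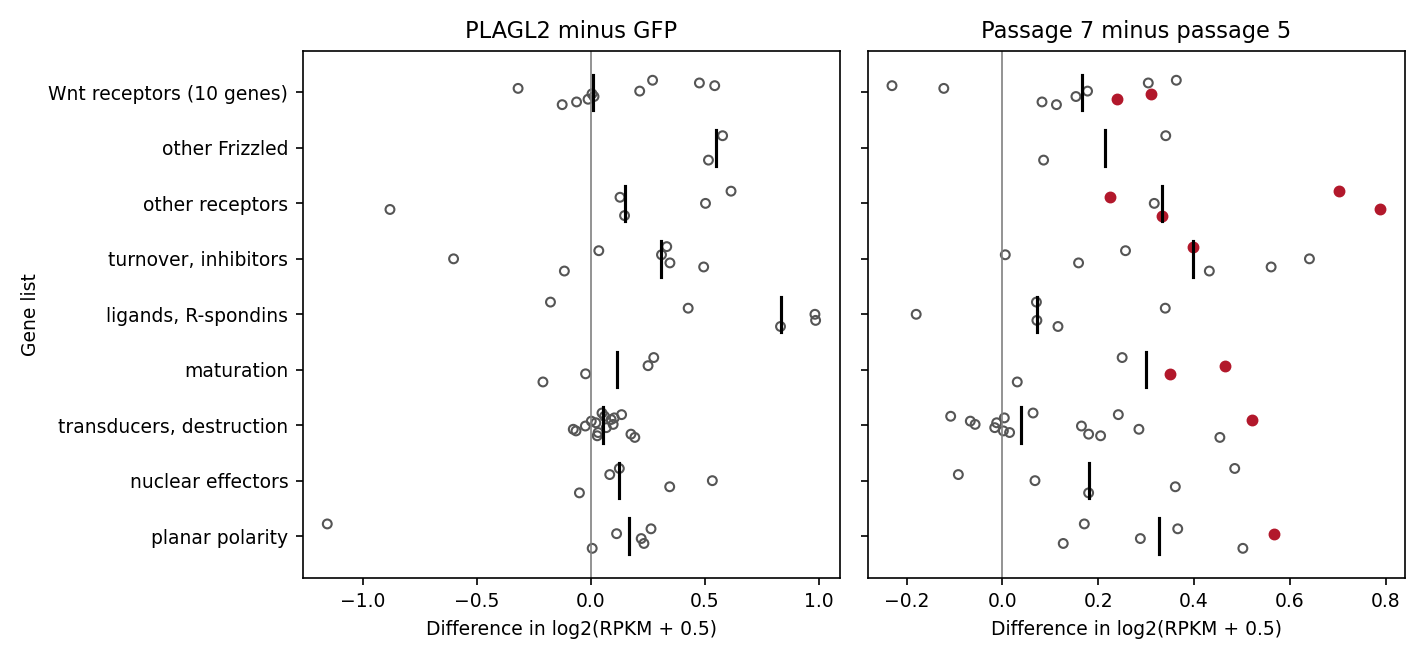
Fitted differences in log2(RPKM + 0.5) for the 10 receptors and 8 lists of other Wnt pathway genes, for PLAGL2 minus GFP (left) and passage 7 minus passage 5 (right). Points are genes, filled red where called, and bars are list medians; between passages 2 receptors and 9 other genes are called.

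The transcript table, in RPKM per transcript, listed 1 transcript each for Fzd1, Fzd2, Fzd4, Fzd7 and Fzd9. Fzd5-001 held 74.8% to 83.1% of the summed Fzd5 transcript RPKM over the libraries, Lrp6-001 71.5% to 80.2%, Lrp5-001 51.2% to 66.1% and Lgr4-001 48.3% to 69.1%. The 2 Fzd6 transcripts exchanged places between passages in clone 1 and GFP but not in clone 3, and the one with the higher mean held 12.3% to 100% of the sum. Fzd1 had the widest range of log2(RPKM + 0.5) among the receptors, 1.18. The tested genes most like it over the 6 libraries were Hs3st1, Scg3 and Rfx5, with Pearson r of 0.995, 0.993 and 0.991, a description over points that share their lines and passages.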

How the data were processed

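RNA-seq of 6 enteroid libraries was used, grouped by line and passage as the labels give them. The authors deposited RPKM values per gene and per transcript; per the submitters' processing notes the build was mm10 and the tools STAR, Subread, featureCounts and edgeR, with no roles or versions stated, and any filter is not given in the sources used here. Repeats (614 of 41383 gene entries) were dropped, which left 40769 identifiers. With GENCODE M21 lengths 66.2% of the 25468 nonzero genes gave whole numbers of reads, to a tolerance of 0.001 reads, and a further 33.8% with a fitted length.

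Values were analysed as log2(RPKM + 0.5), which understates changes of low genes, with limma-trend (limma 3.58.1, R 4.3.3, two-sided) over 16314 genes, with Benjamini-Hochberg adjustment and a threshold of 0.05. Both clones against GFP had 4 residual degrees of freedom, the 3-group fits 3, and passage added to the 3 groups 2. The procedure was tested on simulated data. The changes put in were larger than the fitted differences of the receptors, and no passage effect was simulated. That test therefore does not cover differences like those of the receptors. Same-passage libraries of different lines deviated together (correlations 0.322, 0.277 and 0.278 over 16314 genes), so the passage numbers, given in the labels, pair the libraries. The main fits between lines leave this pairing out, so that passage adds to their spread, and the replicate block includes it. Alternatives were other pseudocounts, no filter, quantile and median scaling, the replicate block, 3 groups, each library left out, and limma's voom on recovered reads. A fit of 3 groups with the replicate block was added after seeing the data.

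The receptors and gene lists were chosen with earlier results of these data known. All 10 receptors are named; of the other Wnt pathway lists, the genes past the threshold, the other Frizzled genes, Lgr5, Znrf3, Rnf43 and Plagl2, and the 3 genes most like the receptor with the widest range. The values of Ptk7 by line and the single cell type markers called between passages or against GFP were singled out after they were seen.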

Additional observations from a re-analysis of the deposited data

Results flagged for a closer look

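For 2 receptors the clones lay on opposite sides of GFP at both passages. The share of all genes that did so was not counted. Fzd9 was lower in clone 3 and higher in clone 1 than GFP, with a log2 difference between clone 3 and clone 1 of -0.37 (limma-trend unadjusted p = 0.0935, adjusted p = 1.00). Lrp5 was likewise lower in clone 3 and higher in clone 1, with a log2 difference of -0.12 (unadjusted p = 0.433, adjusted p = 1.00). Neither difference passed the test of clone 3 against clone 1. Fzd9 rests on 58 to 86 reads in a library, and clone 1 exceeded GFP by only 0.075 at passage 7 on the log2 scale. Lrp5 lay between -0.094 (clone 3) and 0.063 (clone 1) from GFP, both at passage 5. No receptor had a library far from the others among the 4 with PLAGL2.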

How the results depend on the processing

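The count of receptors called was 0 in the 4 comparisons of lines under all 15 alternatives run, as far as each applied. Fzd4, Fzd2 and Fzd5 kept their directions against GFP in every alternative, over both clones and for each clone. For PLAGL2 against GFP their adjusted p ranged from 0.128 to 0.996, 0.0794 to 0.996 and 0.165 to 0.996. Between passages the count, 2 as reported, was 2 with a pseudocount of 0.1 or 1, 0 with no filter, 1 with quantile normalization (Lrp5), 0 with median scaling, and 4 with voom on recovered reads, which added Fzd1 (log2 difference 0.58, adjusted p = 0.0482, range 0.0482 to 0.458 over its alternatives) and Fzd2 (0.34, adjusted p = 0.0138, range 0.0138 to 0.207). It was 0 to 0 when any 1 library was left out, which leaves 2 lines with both passages. The replicate block left the receptor counts at 0 and changed no other call among the receptors. Over all genes it gave 199 higher and 143 lower for clone 3 against GFP in place of 32 and 25, 5 and 7 for clone 1 in place of 3 and 2, 23 and 24 between the clones in place of 1 and 3, and 0 and 2 for PLAGL2 against GFP in place of 0 and 1. With 3 groups these last counts were 16 and 7, and with the replicate block added to them, chosen after seeing the data, 73 and 52. Voom gave 85 and 53 for clone 3, 4 and 6 for clone 1, 16 and 7 between the clones, 2 and 6 for PLAGL2, and 2736 and 1368 between passages in place of 1111 and 864. With no filter the counts were 12 and 10 for clone 1, 9 and 14 between the clones, 2 and 15 for PLAGL2, and 237 and 392 between passages. Quantile normalization gave 7 and 8 between the clones and 771 and 888 between passages, and median scaling 473 and 1127 between passages. Without clone 3 at passage 5 the passage counts were 291 and 471, without clone 3 at passage 7 they were 256 and 474, and without any other library 0 and 0.

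Of 660 receptor values under an alternative 35 changed sign, all of them of differences that were not called, and the cause was not tested. With quantile normalization Fzd9 was at -0.0491 for PLAGL2 against GFP and Fzd7 at 3e-04 for clone 3 against GFP, and with median scaling Fzd7 was at -0.007 for PLAGL2 against GFP and Lrp6 at -0.0013 between the clones. The others came with a library left out. For PLAGL2 against GFP the values then ranged from -0.11 to 0.12 for Fzd7, -0.14 to 0.16 for Fzd9 and -0.13 to 0.10 for Lrp5. For clone 1 against GFP they ranged from -0.28 to 0.16 for Fzd1, -0.0355 to 0.37 for Fzd6, -0.0942 to 0.15 for Fzd7, -0.0678 to 0.17 for Lrp5 and -0.14 to 0.0084 for Lgr4. For clone 3 against GFP the ranges were -0.24 to 0.21 for Fzd7, -0.21 to 0.0635 for Lrp5 and -0.14 to 0.0195 for Lrp6. Between the clones they were -0.0348 to 0.33 for Fzd4, -0.21 to 0.0779 for Fzd5, -0.10 to 0.30 for Fzd6, -0.27 to 0.18 for Fzd7, -0.26 to 0.0143 for Lrp5 and -0.0677 to 0.0869 for Lrp6. Where a line is left with 1 library, that library is assumed to vary like the other lines. Depth limits Fzd1 and Fzd9 most.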
